A study of Homo sapiens with 42 samples.

Results

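REH is a human B-cell precursor acute lymphoblastic leukaemia line that carries the ETV6-RUNX1 fusion gene. Its 3 untreated cultures, named REH A, B and C after their columns, were set against the untreated cultures of 4 other B-precursor lines, Nalm6, SUPB15, RS411 and 697, with 3 libraries each. These 3 libraries were chosen by line and treatment alone, from the 42 libraries of 7 lines. The study exposed parallel cultures of each line for 4 h to 1 IU/ml of L-asparaginase, the enzyme drug that depletes asparagine. No culture compared here received the drug, and all 15 grew in RPMI-1640 with serum and glutamine. As background, SUPB15 carries BCR-ABL1 and RS411 carries KMT2A-AFF1. ETV6-RUNX1 is thus represented by a single long-cultured line. What belongs to the fusion and what belongs to REH as a line cannot be told apart.

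ETV6-RUNX1 joins the amino-terminal part of the repressor ETV6 to nearly all of RUNX1, the DNA-binding factor of blood cell development. The fusion protein is thought to hold RUNX1 target genes in a repressed state, and the leukaemia that carries it arises in early B-cell precursors. Such cells rearrange their antibody genes with the RAG recombinase and then test the heavy chain in the pre-B-cell receptor. In that receptor VPREB1 and IGLL1 stand in for the light chain, and CD79A and CD79B carry the signal.

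Libraries held between 25.54 and 77.14 M counts (mega counts), with 25.54, 36.47 and 46.7 M in REH. At these depths a gene with 3 counts over the REH group stands at 0.0265 CPM, the count scaled to library size by TMM, which serves as the floor for folds against genes at 0. The first library of each other line (A, or 1 in 697) stood apart. These 4 libraries deviated from their group means in the same way (median pairwise correlation 0.78). They also held 3.35% to 7.23% of counts in 5 abundant small noncoding RNAs, against 9.48%, 12.4% and 11.1% in REH A, B and C. The other libraries of the same lines held 7.83% to 13.5%, with RS411 C (7.83%) and 697 3 (7.87%) close to the first libraries. Median correlations of REH A, B and C with these 4 libraries were 0.24, -0.19 and -0.13. The overall counts, the chromosome shares and the gene lists whose counts moved by over 1.5 times are therefore also given without the 4. In bulk RNA, fewer cells of a kind and less RNA per cell cannot be told apart.

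The summed B-lineage markers of REH lay within the range of the other lines, but single members went opposite ways. Summed over 11 markers, the level was 2660, 3200 and 3430 CPM in REH, inside the 1220 to 3730 CPM of the other lines. RAG1, above every line, made up a large part of this sum, and VPREB1 had 0 counts in REH. RAG1 is not particular to the B lineage, with 1170, 1700 and 1510 CPM in the untreated T-cell line DND41 (scaled over all 42 libraries). Defining T-cell genes such as CD3D and CD3E, and the globin genes, were too low to test in any of the 5 lines. The 13 myeloid markers summed to 79.1, 41.6 and 37.7 CPM in REH, against 5.29 to 74.8 CPM in the other libraries. MPO, the granule peroxidase of myeloid cells, made up most of this, with 61.5, 25.5 and 19.3 CPM in REH and at most 8.15 CPM elsewhere. CEBPA, a myeloid transcription factor, had 0 counts in REH and 1.13 to 59 CPM elsewhere, so the myeloid list did not move as one. The T-cell markers summed to 2.22, 1.75 and 2.23 CPM in REH against 0.114 to 5.3 CPM, and TRAT1 was the 1 of 4 tested that was above every line. Without the 4 first libraries, 3 of 5 T-cell markers tested were above every line, and 3 B-lineage markers were above and 2 below, against 1 and 1 with them. Over all genes, 5.42% were above and 3% below every line, and 7.22% and 4.33% without the 4 first libraries. Erythroid markers summed to 1.88, 1.64 and 0.998 CPM against 0 to 0.529 CPM, with SLC4A1 the 1 of 2 tested above every line. Stromal markers summed to 36, 26.8 and 31.7 CPM against 18 to 409 CPM, and none of 8 tested was outside every line. The part of these marker genes in the results was not tested.

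Of 19178 genes tested, 4405 (23%) were higher and 2403 (12.5%) lower in REH than the mean of the 4 lines, at an adjusted p under 0.05 in edgeR's quasi-likelihood test. Against Nalm6, 3651 genes (19%) were higher and 2747 (14.3%) lower in REH, and against SUPB15 3914 (20.4%) and 3229 (16.8%). Against RS411, 3762 (19.6%) were higher and 3519 (18.3%) lower, and against 697 4155 (21.7%) and 3794 (19.8%). A gene was called above or below every line where all 4 of these single contrasts passed with the same sign. By that rule 1040 genes (5.42%) were above every line and 576 (3%) below every line. With a log2 difference of at least 1 from each line, 860 genes (4.48%) were above and 343 (1.79%) below. In 1608 genes (8.38%) the 3 REH libraries all lay above the 12 others, and in 878 (4.58%) all lay below them. The median log2 difference over all genes tested was 0.03. Without the 4 first libraries, 1416 genes were above every line, including 1029 of the 1040, and 850 below, including 545 of the 576. These are 7.22% and 4.33% of the genes then tested. At the edge of the rule, HCG11 and TMEM159 passed with a largest adjusted p of 0.0498, and SEC61A2 and TSC22D3 missed with 0.05 and 0.0503. HCP5 and DENND6A were the last genes called below, at 0.0498, and KIAA1024 and TMX4 missed at 0.0502 and 0.0507.

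Several of the widest differences were between a gene with no more than 3 counts in a line and an active one, so the sequence just upstream of 4 such genes is shown. VPREB1 and BCAT1 were at that level in REH and active elsewhere, and CLIC5 and DSC3 the other way round. Each line gives the 150 bases before the annotated start from RefSeq (GRCh38.p14), with every CG dinucleotide, the site of DNA methylation, in capitals. VPREB1 lies at chr22:22244636-22244785 on the plus strand, BCAT1 at chr12:24949102-24949251, CLIC5 at chr6:46129820-46129969 and DSC3 at chr18:31042743-31042892, all 3 on the minus strand.
VPREB1: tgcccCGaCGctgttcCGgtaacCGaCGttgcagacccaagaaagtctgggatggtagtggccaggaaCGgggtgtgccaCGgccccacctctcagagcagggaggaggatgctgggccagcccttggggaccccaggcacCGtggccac
BCAT1: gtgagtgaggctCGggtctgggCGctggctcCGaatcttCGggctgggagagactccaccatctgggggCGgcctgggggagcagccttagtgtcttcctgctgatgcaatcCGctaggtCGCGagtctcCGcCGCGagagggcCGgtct
CLIC5: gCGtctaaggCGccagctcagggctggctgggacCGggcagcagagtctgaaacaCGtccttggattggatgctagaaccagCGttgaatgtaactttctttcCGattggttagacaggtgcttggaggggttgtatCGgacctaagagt
DSC3: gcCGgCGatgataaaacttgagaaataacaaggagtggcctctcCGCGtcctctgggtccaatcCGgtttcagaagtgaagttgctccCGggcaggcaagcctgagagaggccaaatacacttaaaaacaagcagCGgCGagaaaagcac

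In the full 300-base window around the start, VPREB1 held 8 CG dinucleotides, BCAT1 23, CLIC5 24 and DSC3 25. The median was 24 for genes above every line, 26.5 for genes below every line and 26 for all 11553 tested genes with a promoter in the RefSeq table. The core RUNX recognition letters TGTGGT, searched on both strands, were present in 69 of 687 promoters of genes above every line (10.04%) and 28 of 402 below (6.97%), beside 9.69% of all promoters. The doubled ETS core GGAAGGAA, also on both strands, was present in 3.93%, 2.24% and 3.44% of the same sets. None of the 4 shown windows held TGTGGT.

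Genes known from the literature as high in ETV6-RUNX1 leukaemia were high in REH. Of 16 such genes, listed from general knowledge, 12 were above every line and none below, beside 5.42% and 3% of all genes tested. Of the 16, 15 were higher than the mean of the 4 lines, as 23% of all genes were. Their median log2 difference was 5.96, beside 0.03 over all genes. The count of 12 was the same without the 4 first libraries, and 13 of 16 were above every line in the treated libraries. The list describes the leukaemia subtype that REH stands for, and its members were chosen with earlier results of these data known. Its direction here therefore describes REH and does not test the line's identity.

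IGF2BP1, an RNA-binding protein of foetal tissues, had 280, 215 and 160 CPM in REH A, B and C and 0 counts in all 12 other libraries. Against a floor of 3 counts over the 697 group, the shallowest of the 4, it was at least 7730-fold higher in REH. CLIC5, of the intracellular chloride channel family, had 72.5, 89.3 and 54.9 CPM in REH and 0 counts elsewhere, at least 2610-fold higher. Neither gene overlapped between REH and any other library.

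PCLO, a scaffold protein of the presynaptic zone, had 1020, 1100 and 1180 CPM in REH and at most 2.59 CPM elsewhere, in SUPB15. DSC3, a cadherin of desmosomes, had 101, 98.6 and 78 CPM in REH, and the 12 other libraries held 1 count each in RS411 A and 697 3 and none besides. KCNN1, a calcium-activated potassium channel, had 130, 134 and 114 CPM in REH and 0 to 0.74 CPM elsewhere. These genes separated REH from every line by more than 2 orders of magnitude on the CPM scale.

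EPOR, the receptor of erythropoietin, had 18.4, 20.5 and 13.2 CPM in REH. The 12 other libraries ran from 0.132 to 1.93 CPM with a median of 0.463, so the groups did not overlap. The log2 difference from the mean of the lines was 4.98 ± 0.32 (SE, adjusted p = 9.6e-09, edgeR), and RS411 was the nearest line at 11.7-fold. BIRC7, an inhibitor of apoptosis, reached 16.9, 18.1 and 19.7 CPM in REH and at most 0.0676 CPM elsewhere. PTPRK, a receptor tyrosine phosphatase, had 329, 338 and 358 CPM in REH and 0.222 to 40.8 CPM elsewhere, with SUPB15 nearest at 8.77-fold. HAP1 and ARHGEF4 were above every line by smaller margins of 4.46-fold over RS411 and 4.05-fold over Nalm6.

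The remaining 4 list members did not stand above every line. SOX11, a developmental transcription factor, had 90.6, 76.9 and 66 CPM in REH but 105, 81.3 and 94.1 CPM in 697, and at most 0.142 CPM in the other 3 lines. PIK3C3, the vesicular lipid kinase, had 163, 163 and 189 CPM in REH and up to 148 CPM elsewhere, and missed against RS411 (log2 0.44, adjusted p = 0.061, edgeR). CBFA2T3, an ETO-family corepressor, had 11.9, 9.07 and 10 CPM in REH, overlapping Nalm6 at 11.7, 10.2 and 6.45 CPM. TCFL5 had 36.9, 44.8 and 48.5 CPM in REH, inside the 18.9 to 70.6 CPM of the other lines, and did not pass against their mean (adjusted p = 0.46, edgeR).

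**Figure D1:**
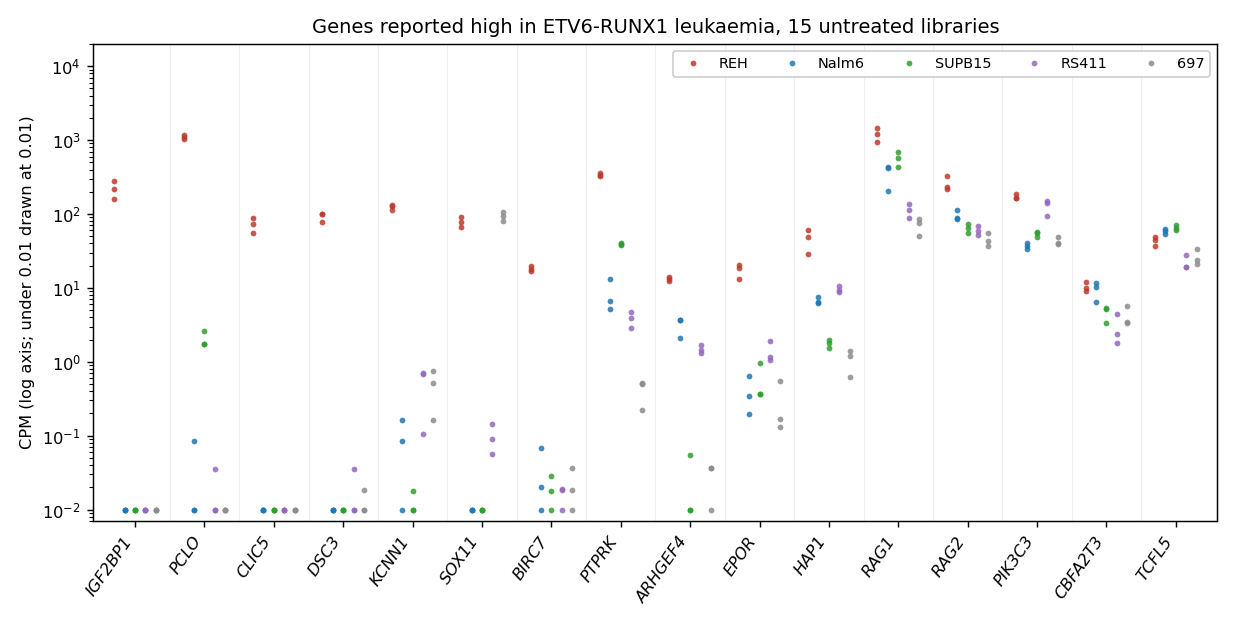
CPM on a log axis of the 16 genes of the ETV6-RUNX1 list in each of the 15 untreated libraries, 1 point per library and REH at the left of each gene, with values under 0.01 CPM drawn at 0.01. REH lies above every other library in 13 of the 16 genes, and SOX11 is as high in 697 (81.3 to 105 CPM) as in REH (66 to 90.6 CPM).

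The 2 recombinase genes were above every line, and none of the other recombination genes was. RAG1 had 938, 1200 and 1470 CPM in REH and 50.2 to 687 CPM elsewhere, highest in SUPB15, which REH exceeded 2.14-fold (largest adjusted p of the 4 contrasts 0.0092, edgeR). RAG2 had 229, 217 and 325 CPM in REH and 37 to 112 CPM elsewhere. Of 14 recombination genes, RAG1 and RAG2 were the 2 above every line, beside 5.42% of all genes. Both were counted in the signature list as well, so they are no separate result. DNTT, the template-independent polymerase that adds bases at the joints, had 539, 596 and 861 CPM in REH, between the 1240 to 1610 CPM of SUPB15 and the 48 to 120 CPM of RS411. Of the 14 genes, 2 were lower than the mean of the lines, where 12.5% of all genes were. PRKDC, the DNA-dependent kinase of end joining, had 563, 344 and 299 CPM in REH against 500 to 1510 CPM elsewhere (log2 -1 ± 0.23, SE, adjusted p = 0.0031, edgeR), overlapping the other lines. POLL, a polymerase of end joining, had 0.243, 0.0548 and 0.104 CPM in REH, as low as Nalm6 at 0.0282 to 0.203 CPM, while the other 3 lines had 1.85 to 16.3 CPM. XRCC4, XRCC6 and LIG4, also of end joining, had log2 differences of -0.09, 0.11 and -0.12 from the mean and did not pass.

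ETV6 itself was below every line. It had 2.33, 1.12 and 2.18 CPM in REH against 9.59 to 85.6 CPM elsewhere, a log2 difference of -4.17 ± 0.37 from the mean (SE, adjusted p = 3.1e-07, edgeR). RS411, the nearest line, was 6.95-fold higher. The counts are per gene, so reads of the fusion and of an unrearranged ETV6 allele cannot be told apart. RUNX1 had 73.1, 56.7 and 60.5 CPM in REH, close to Nalm6 at 78.3, 59.9 and 60.4 CPM, and 697 ranged from 130 to 367 CPM. Its log2 difference from the mean was -0.81 ± 0.26 (SE, adjusted p = 0.025, edgeR), which was lost without REH B (adjusted p = 0.1) or REH C (0.096), and the value in treated libraries was 0.08.

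Of 15 ETV6, RUNX and corepressor genes tested, 1 was above and 1 below every line, beside 5.42% and 3% of all genes. TLE1, a Groucho corepressor, had 117, 122 and 186 CPM in REH against 8.43 to 44.2 CPM elsewhere. TLE4, of the same family, had 20.3, 13.5 and 18.9 CPM in REH, alike in level to RS411 at 18.4, 15.1 and 15.9 CPM, while the other 3 lines had 89.6 to 153 CPM. RUNX1T1 had 0 counts in all 5 lines.

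**Figure D2:**
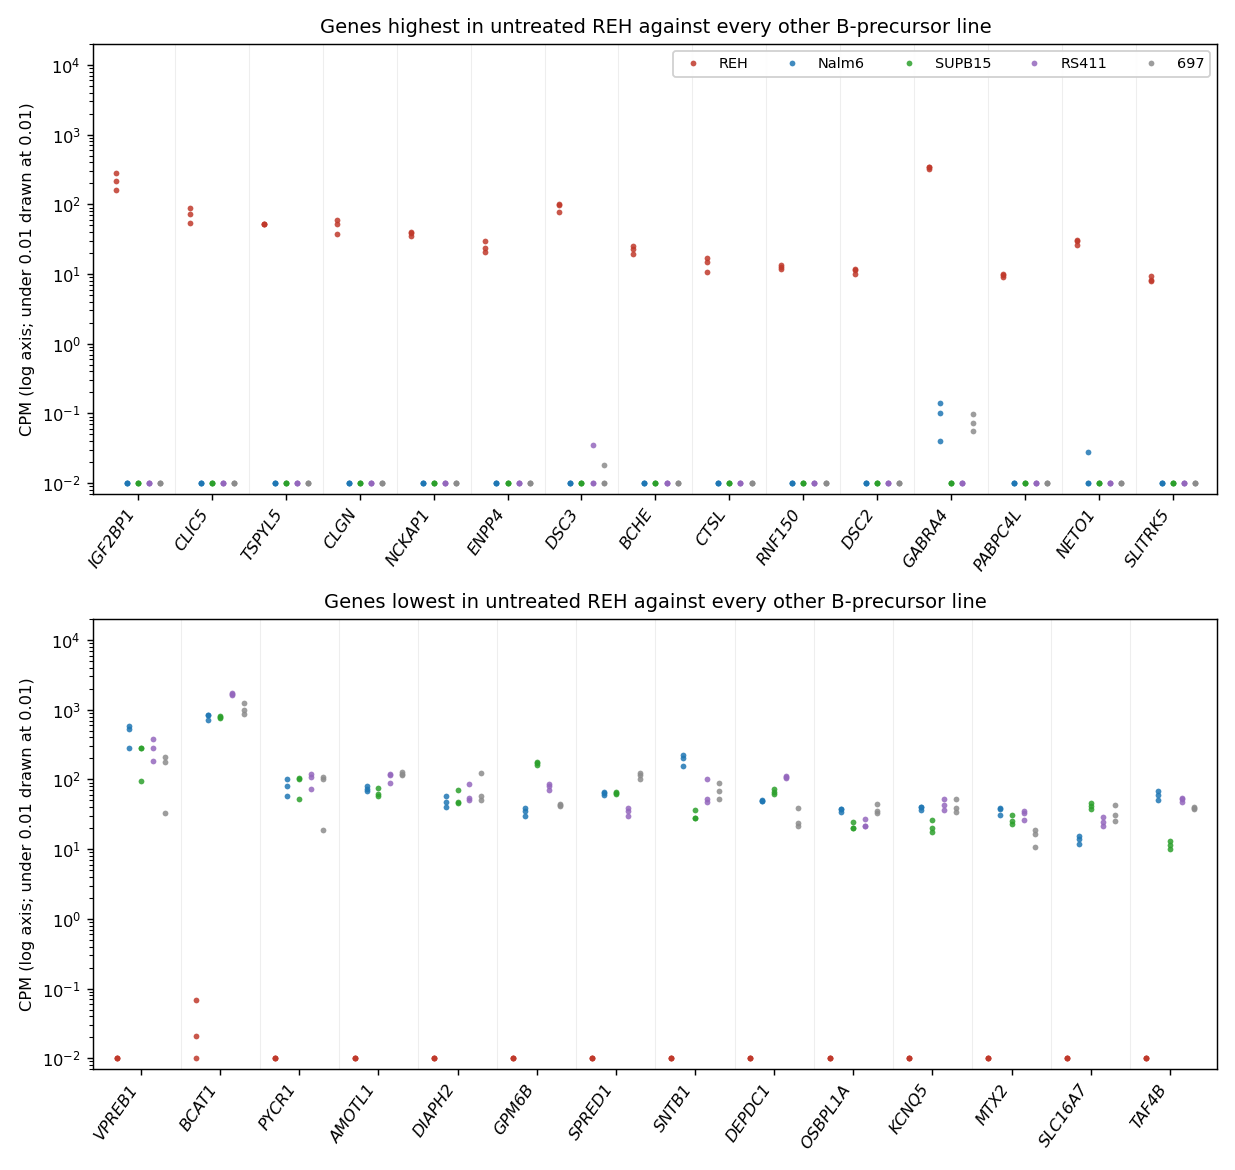
CPM on a log axis of the 15 genes furthest above every line, noncoding and pseudogene names left out (upper panel), and 14 of the 15 furthest below (lower panel), 1 point per library with REH at the left of each gene, values under 0.01 CPM drawn at 0.01. REH has 7.89 to 341 CPM in the upper panel where the other lines have at most 0.141 CPM, and at most 0.0695 CPM in the lower panel where they have 10.2 to 1720 CPM.

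The 15 genes furthest above every line were chosen by their smallest difference from any line, with noncoding and pseudogene names ranked apart. DSC2 lies beside DSC3 in the desmosomal cadherin cluster and had 11.3, 12 and 10 CPM in REH and 0 counts elsewhere. GABRA4, a GABA receptor subunit, had 338, 341 and 321 CPM in REH and 0 to 0.141 CPM elsewhere, 4050-fold above Nalm6. NETO1, an auxiliary protein of glutamate receptors, had 30.5, 26.2 and 29.8 CPM in REH and 1 count in a single Nalm6 library elsewhere, a ratio of 4570 with a counting interval of 820 to 181000. SLITRK5, a neuronal adhesion protein, had 7.89, 8.11 and 9.27 CPM in REH and no count elsewhere.

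The rest of the 15 had 0 counts in all 12 other libraries. TSPYL5, of a nucleosome assembly family, was the steadiest in REH at 52.2, 51.9 and 51.4 CPM. CLGN, a chaperone of the endoplasmic reticulum best known in testis, had 37.9, 60.1 and 51.7 CPM, and NCKAP1, a subunit of the actin-regulating WAVE complex, 40.7, 38.6 and 34.8 CPM. BCHE, butyrylcholinesterase, had 19.2, 22.9 and 25 CPM and CTSL, the lysosomal protease cathepsin L, 10.6, 16.8 and 14.7 CPM. ENPP4, which lies beside CLIC5, RNF150 and PABPC4L had REH means of 24.8, 12.7 and 9.62 CPM. Folds over the floor of 697 ran from at least 317 for SLITRK5 to at least 7730 for IGF2BP1. In all, 33 genes had 5 CPM or more in REH and at most 3 counts in each other line, 6 of them with noncoding names. Of these 33, 20 were also under 1 CPM in both T-cell lines of the study, CEM and DND41.

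VPREB1 was the gene furthest below every line. It had 0 counts in REH A, B and C, and 279, 591 and 530 CPM in Nalm6, 94.3, 281 and 282 in SUPB15, 186, 379 and 286 in RS411 and 33.3, 210 and 177 in 697. REH was thus at least 5510-fold lower than 697, the lowest of the 4. IGLL1, the partner of VPREB1 in the surrogate light chain, had 337, 427 and 417 CPM in REH, inside the 107 to 1390 CPM elsewhere, and did not pass against the mean (log2 -0.55 ± 0.3, SE, adjusted p = 0.18, edgeR). REH therefore expressed 1 of the 2 surrogate light chain genes at levels within the range of the other lines.

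Of 25 pre-B-cell receptor and signalling genes, 3 were below and 1 above every line, beside 3% and 5.42% of all genes. ZAP70, a tyrosine kinase that relays antigen receptor signals, had 0.104, 0.466 and 0.187 CPM in REH against 8.77 to 48.9 CPM elsewhere. LYN, a SRC-family kinase, had 13.1, 8.06 and 6.92 CPM in REH against 40.4 to 199 CPM elsewhere, and 697 was nearest at 6.12-fold. VAV1, an exchange factor downstream of these kinases, had 209, 207 and 189 CPM in REH against 20.5 to 109 CPM elsewhere. Of the 25, 4 were below and 3 above without the 4 first libraries, where 4.33% and 7.22% of all genes were. CD79A and CD79B were higher than the mean of the lines, by log2 1.17 and 1.3, without being above every line. TCL1A, a cofactor of AKT named after its values were seen, had 0, 1 and 2 counts in REH and 11.7 to 1410 CPM elsewhere, with RS411 lowest.

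Among 28 transcription factors of the B lineage, 3 were below and 1 above every line, beside 3% and 5.42% of all genes. IRF4, which acts in the step from pre-B to B cell, had 2.22, 2.16 and 2.77 CPM in REH against 91.5 to 352 CPM elsewhere, and 697 was nearest at 42.3-fold. IKZF3, the Aiolos zinc-finger factor, had 0.104, 0.11 and 0.125 CPM in REH against 3.02 to 75.3 CPM elsewhere. SOX4 was lower by a smaller margin, at 155, 129 and 163 CPM in REH against 259 to 529 CPM. BCL6, a repressor that protects pre-B cells from DNA damage signals, had 112, 87.9 and 99.7 CPM in REH and at most 51.2 CPM elsewhere. PAX5, which fixes B-cell identity, differed by log2 -0.27 from the mean. Without the 4 first libraries, 4 of the 28 were above and 3 below every line, beside 7.22% and 4.33% of all genes.

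Of 33 surface antigen genes tested, 2 were above and 2 below every line, beside 5.42% and 3% of all genes. When the 4 first libraries were left out, 3 were above and 4 below, beside 7.22% and 4.33% of all genes. CD38 had 236, 302 and 310 CPM in REH against 77.3 to 141 CPM elsewhere. CD40, a receptor for T-cell help, had 10.4, 10.9 and 13.2 CPM in REH against 0.203 to 3.35 CPM elsewhere. CD44, a hyaluronan receptor, had no count in REH, but Nalm6 and 697 had at most 0.426 CPM, so that REH was at least 4.75-fold lower than 697. CSPG4, known as NG2, was called below every line with 0.417, 0.0548 and 0.104 CPM in REH, although SUPB15 A lay at 0.199 CPM, and RS411 reached 106 CPM. Among 26 integrin, adhesion and chemokine receptor genes, 1 was above and 3 below every line, beside 5.42% and 3% of all genes. These were ITGAM above, and ITGAV, S1PR1 and again CD44 below. ITGAV, the integrin alpha V chain, had 0.0348, 0.0548 and 0.0208 CPM in REH against 6.61 to 37.3 CPM elsewhere. ITGAM, also on the myeloid list, had 6.9 to 7.82 CPM in REH and at most 1.98 CPM elsewhere.

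Of 31 cytokine receptor and JAK-STAT genes, EPOR, PIM1 and IFNGR1 were above and JAK1 below every line, beside 5.42% and 3% of all genes. PIM1, a kinase induced by STAT5, had 134, 142 and 154 CPM in REH against 2.75 to 16.8 CPM elsewhere, 11.6-fold above RS411. JAK1 had 92.4, 94 and 86.2 CPM in REH against 124 to 284 CPM. Of 30 interferon-stimulated genes, 4 were above and 1 below every line, beside 5.42% and 3% of all genes. The median log2 difference of the 30 was 0.74, beside 0.03 over all genes. OAS3 had 39.7, 44 and 37.3 CPM in REH against 1.89 to 16 CPM elsewhere, while OAS2, its neighbour in the family, had 14.4, 16.2 and 19.3 CPM against 24.4 to 65.6 CPM. MX1, MX2 and IFI44 were above every line. The 2 OAS genes thus stood on opposite sides of the other lines.

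Among 17 genes of MHC class II presentation, 11 were higher and 1 lower than the mean of the lines, where 23% and 12.5% of all genes were, and none was above every line. HLA-DQA1 was the exception in direction, with 0.139, 0.0548 and 0.0416 CPM in REH against 0.751 to 36.2 CPM elsewhere. HLA-DQA1 varies strongly between people, so its counts can depend on which allele the annotation holds. Of 17 class I genes, 1 was below every line, beside 3% of all genes. This was NLRC5, the activator of that pathway, at 17.9, 17.2 and 15.7 CPM in REH, though 697 1 overlapped at 16.2 CPM. Of 17 HOXA, MEIS and PBX genes, HOXA3, HOXA11 and HOXA13 were above every line, beside 5.42% of all genes. HOXA13 had 8.03, 7.64 and 11.2 CPM in REH and at most 0.846 CPM elsewhere, while HOXA9, HOXA10 and MEIS1 were highest in RS411 with means of 40.9, 54.2 and 160 CPM.

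**Figure D3:**
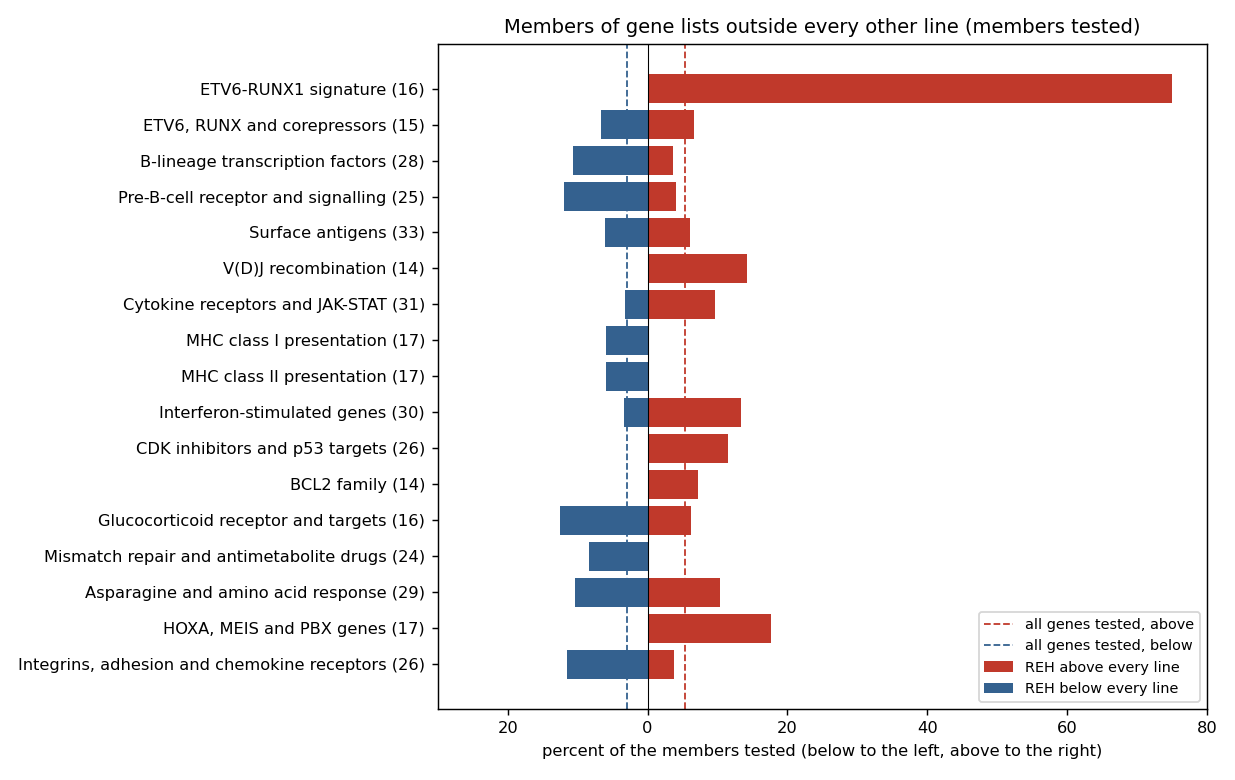
Percent of the members tested of each gene list that were above every line (bars to the right) or below every line (bars to the left) in REH, with the number tested in brackets and dashed lines at 5.42% and 3%, the shares over all genes. The ETV6-RUNX1 list reaches 12 of 16 above, and the other lists hold at most 4 genes in either direction.

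NR3C1, the glucocorticoid receptor that prednisone and dexamethasone act on, was below every line. It had 59.9, 54.3 and 67.9 CPM in REH against 183 to 691 CPM elsewhere. The log2 difference from the mean was -2.51 ± 0.15 (SE, adjusted p = 3.7e-09, edgeR), and Nalm6 was nearest at 3.67-fold. KLF9, a gene that the receptor induces, had 1 count over the 3 REH libraries and 2.65 to 19.6 CPM elsewhere. FKBP4, a receptor cochaperone, was above every line at 94.7, 109 and 121 CPM against 0.09 to 73.4 CPM. Of 16 receptor and target genes, these 3 were outside every line, 1 above and 2 below, beside 5.42% and 3% of all genes. Without the 4 first libraries, 4 were above and 2 below, beside 7.22% and 4.33% of all genes.

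Of 26 genes tested on the CDK inhibitor and p53 target list, CCND1, CCND2 and FAS were above every line, beside 5.42% of all genes. CCND1 and CCND2 are D-type cyclins, so only FAS of these 3 belongs to the class that names the list. Without the 4 first libraries, 5 of 27 were above every line, beside 7.22% of all genes. FAS, a death receptor, had 29.1, 40.2 and 30.2 CPM in REH against 0.82 to 3.86 CPM elsewhere. In the treated libraries, scaled over all 42, FAS had 3.7, 4.39 and 3.07 CPM in REH and 0.302 to 4.13 CPM in the other 4 lines. CCND2, a D-type cyclin, had 10.7, 9.97 and 5.14 CPM in REH and at most 0.845 CPM elsewhere. CDKN2A was too low to test, with 0 counts in REH, Nalm6, SUPB15 and RS411. MCL1, an antiapoptotic BCL2-family protein, was the only one of 14 family genes outside every line, at 425, 441 and 411 CPM in REH against 168 to 329 CPM. In the treated libraries the log2 difference of MCL1 was 0.03 (adjusted p = 0.79, edgeR). ABCC4, an efflux pump for thiopurine metabolites, had 20.4, 18.6 and 15.2 CPM in REH against 51.4 to 70.4 CPM.

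BCAT1, the cytosolic enzyme that moves amino groups between branched-chain amino acids and glutamate, had 2, 0 and 1 counts in REH A, B and C and 715 to 1720 CPM elsewhere. SUPB15, the nearest line, exceeded REH by a ratio of 29800 with a counting interval of 10200 to 145000. PYCR1, which makes proline in mitochondria, had 0 counts in REH and 18.7 to 119 CPM elsewhere, at least 3020-fold lower in REH. GPT2, the mitochondrial alanine aminotransferase, named after its values were seen, had 2 counts in REH C and none in A and B, against 52.8 to 147 CPM elsewhere. All 3 genes had at most 3 counts over the REH group and were present in each of the other 12 libraries.

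Some sister enzymes did not show this pattern. They were picked after the values above were seen. BCAT2, the mitochondrial counterpart of BCAT1, had 35.7, 43.8 and 43.9 CPM in REH, inside the 6.49 to 57.3 CPM elsewhere. PYCRL, of the PYCR1 family, had 12.8, 15.2 and 12.2 CPM in REH and 4.8 to 38.1 CPM elsewhere. GPT, the cytosolic counterpart of GPT2, was at or under 1.48 CPM in every library, with 0.139, 0.0274 and 0.0832 CPM in REH. At that level it could not show the pattern, so it gives no contrast to GPT2. None of these 3 passed against the mean of the lines, with adjusted p of 0.18 for BCAT2 and 0.33 for both PYCRL and GPT (edgeR).

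Of 29 genes of asparagine metabolism and the amino acid response, 3 were above and 3 below every line, beside 5.42% and 3% of all genes. ASNS, asparagine synthetase, had 75.5, 73.8 and 57.1 CPM in REH, alike in level to Nalm6 at 50.3, 110 and 59.3 CPM, while SUPB15 and RS411 had at most 1.55 CPM. GOT1, the cytosolic aspartate aminotransferase, had 88.2, 86.8 and 68.9 CPM in REH against 24 to 49.4 CPM. ASRGL1, an asparaginase of human cells, had 8.79, 7.18 and 4.95 CPM in REH and at most 1.87 CPM elsewhere. SLC38A1, a glutamine transporter, had 232, 171 and 150 CPM in REH against 412 to 624 CPM. EIF2AK4, the kinase GCN2 that senses uncharged tRNA, had 41, 44.1 and 53.6 CPM in REH against 61.2 to 131 CPM. The genes of this list outside every line therefore lay on both sides.

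The other genes with 0 counts in REH came from many functions. SPRED1, an inhibitor of RAS signalling, had 29.6 to 124 CPM in the other lines, DIAPH2, an actin nucleator, 40.1 to 124 CPM, and AMOTL1, of the angiomotin family, 58.2 to 129 CPM. MTX2, part of the mitochondrial import machinery, SLC16A7, a monocarboxylate transporter, and TAF4B, a TFIID subunit, had medians of 28.4, 27 and 43.6 CPM there. GPM6B, SNTB1, DEPDC1, OSBPL1A and KCNQ5 likewise had no count in REH and a lowest value of 17.7 CPM elsewhere. In all, 29 genes had at most 3 counts over the 3 REH libraries and 5 CPM or more in each other line. At 1 CPM or more, 16 of the 29 were also present in both T-cell lines.

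The metallothioneins, small zinc-binding proteins whose genes lie side by side on chromosome 16, gave 2 of these 29 and were named after their values were seen. MT1F and MT1G had 0 counts in REH against 4.67 to 7.79 and 3.74 to 102 CPM elsewhere. MT1X was below every line at 4.9, 5.78 and 7.38 CPM against 11.4 to 145 CPM, while MT2A overlapped the other lines at 12.1, 15 and 12.8 CPM. Reads can be shared between near-identical metallothionein genes, so single members are uncertain.

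KCNQ1 and its antisense transcript KCNQ1OT1 stood on opposite sides. KCNQ1, a potassium channel gene named after its values were seen, had 6.64, 7.07 and 7.03 CPM in REH and 2 counts in RS411 B and 1 in Nalm6 B elsewhere. KCNQ1OT1, a noncoding RNA that starts inside KCNQ1 on the other strand and silences the paternal copy of its neighbours, had 0 counts in REH. It had 6.28 to 67.1 CPM in the other libraries, at least 315-fold lower in REH than in SUPB15. No source states whether the counting used the strand, so reads over the shared stretch could be assigned to either gene.

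Of the other genes with noncoding names, RP11-129J12.1, RP11-384O8.1 and RP11-470M17.2 were above every line at 0 counts elsewhere, with REH means of 9.81, 8.1 and 5.69 CPM. ACTG1P22, an actin pseudogene, had 42.2, 46.3 and 100 CPM in REH, and its reads may belong to ACTG1. Below every line, LINC01420 had 0.382, 0.356 and 0.25 CPM in REH against 17 to 24.6 CPM, and AC006129.2 had 0.707 to 1.53 CPM in REH against 8.38 to 22.4 CPM. SMG1P3 and RP11-51F16.1 were lower by 3.44-fold against SUPB15 and 3.01-fold against Nalm6.

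Genes below every line were unevenly spread over chromosomes. Chromosome 3 held 95 of the 576, or 10.59% of its 897 genes tested, and no other chromosome exceeded 5.99%. The next were chromosome 18 (5.99%), chromosome 8 (5.14%) and chromosome 10 (4.9%). For genes above every line, chromosome 21, which carries RUNX1, had the highest share at 11.45% (19 of 166), followed by chromosome 4 at 9.19% and chromosome 14 at 8.48%. Chromosome 3 without the 4 first libraries had 15.54% below every line, chromosome 8 9.16% and chromosome 18 8.84%, and chromosome 21 had 16.97% above. The chromosome and order of each gene were taken from RefSeq by symbol for 15548 of the 19178 genes tested, without coordinates, since the counts were made on another build.

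**Figure D4:**
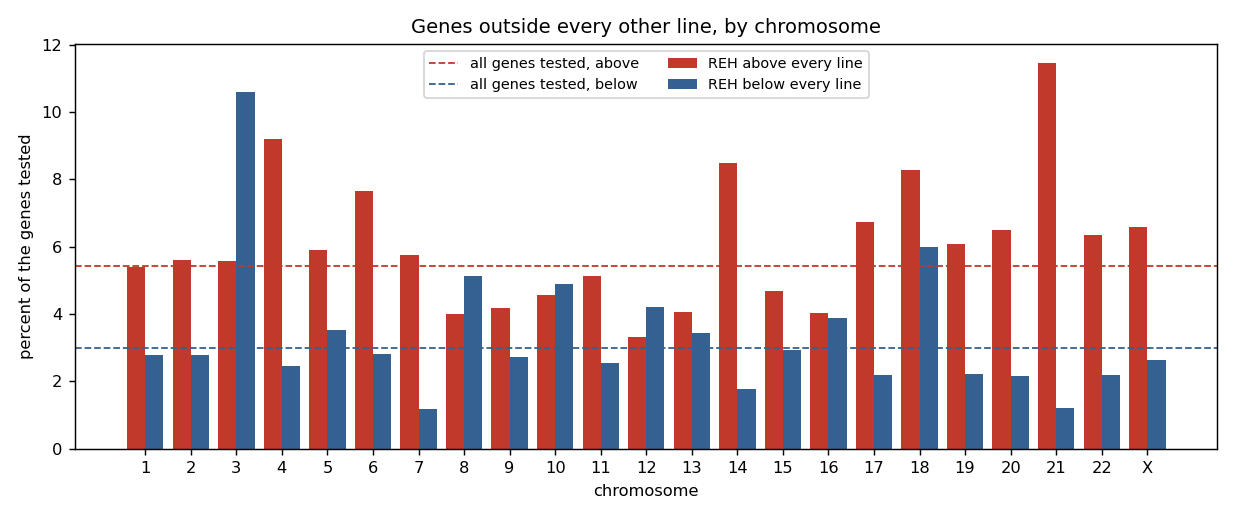
Percent of the genes tested on each chromosome that were above (left bar) or below every line (right bar) in REH, with dashed lines at the shares over all genes, 5.42% and 3%. Chromosome 3 reaches 10.59% below every line, and chromosome 21 reaches 11.45% above.

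On chromosome 3 the lower genes lay together. In gene order, with genes of a mean of 5 CPM or more, a stretch of 158 neighbouring genes from TRANK1 to C3orf67 had a running median of 21 genes at least 0.3 log2 units below all 4 lines. The window blurs both ends. Median log2 differences over the stretch were -0.95 against Nalm6, -0.98 against SUPB15, -0.84 against RS411 and -0.92 against 697. In it, 69 genes (43.67%) were below every line and 1 above, and 123 had a negative difference from all 4 lines. On the rest of chromosome 3, 20 of 404 genes (4.95%) were below every line, and on other chromosomes 342 of 9542 (3.58%). The stretch was chosen from these differences, so the counts describe it and test nothing.

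Each REH library showed the stretch alike. The median level of its genes was 54.3%, 54.5% and 55.6% of the mean of the 12 other libraries in REH A, B and C, on the log2 scale with 0.5 CPM added. That is -0.88, -0.87 and -0.85 log2 units, against -0.4 to 0.18 in the other 12 libraries, of which 697 1 was lowest. On the rest of chromosome 3 the same medians were -0.06 to 0.12 in REH and -0.12 to 0.13 in the others. The 3 treated REH libraries, which played no part in choosing the stretch, had -0.8 to -0.77, against -0.02 to 0.19 in the treated libraries of the other lines. Against a mean without the 4 first libraries, untreated REH A, B and C stood at -0.99, -0.98 and -0.95 log2 units. Without the 4 first libraries 106 of the 158 genes were below every line, and in the treated libraries 113.

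Of 14 runs of 3 or more genes called alike and adjacent among genes at 5 CPM or more, 8 were below every line on chromosome 3. One of these comprised MAPKAPK3, MANF, RBM15B, DCAF1 and RAD54L2, and another SMARCC1, a chromatin remodelling subunit, DHX30, MAP4 and CDC25A, a cell cycle phosphatase.

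**Figure D5:**
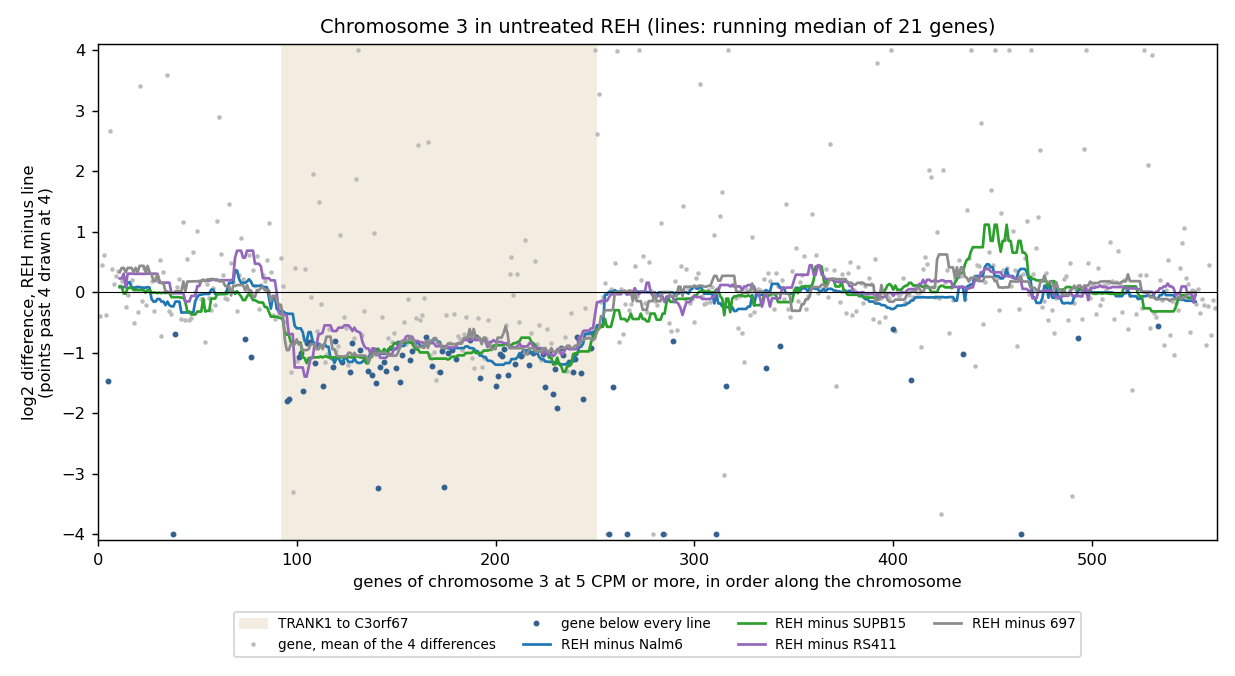
Log2 difference of REH from the other lines for genes of chromosome 3 in their order along it, as points for the mean of the 4 differences (blue where the gene was below every line) and as lines for the running median of 21 genes against each line. All 4 lines drop together over the shaded stretch from TRANK1 to C3orf67, where the medians lie between -0.98 and -0.84, and lie nearer 0 just past both ends. Further along they rise again, most against SUPB15.

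By the same procedure, stretches were found on 3 other chromosomes, all shorter. On chromosome 21, 8 genes from TTC3 to HMGN1 were higher in REH, by medians of 0.63, 0.56, 0.52 and 0.4 against Nalm6, SUPB15, RS411 and 697, and 2 of them were above every line. On chromosome 8, 19 genes from TPD52 to DECR1 were lower, by medians between -1.02 and -0.36. On chromosome 1, 6 genes from DNAJC6 to IL12RB2 were lower, by medians between -2.41 and -0.45. The 29 genes with at most 3 counts in REH lay on 16 chromosomes. Neighbours were taken in the order of genes at a mean of 5 CPM or more. To that order these 29 genes and those on in REH and off elsewhere were added. A neighbour was also below every line for 4 of the 29 (13.8%), beside 8.1% of all 10124 placed genes. Of 28 placed genes that were on in REH and off elsewhere, 8 (28.6%) had such a neighbour above every line. DSC2 with DSC3 and CLIC5 with ENPP4 were among them, and 6.3% of all placed genes had such a neighbour. Genes such as DSC2 and MT1F entered the order only by this addition. Both shares were thus partly set by the choice of genes and test nothing.

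The treated libraries of the same 5 lines, fitted on their own, served as a second set of cultures. Of the 1040 genes above every line, 745 (71.6%) were again above every line there. Only 946 of them were tested there, of which the 745 are 78.8%, and 1359 genes were called in all, 7.38% of those tested. Of the 576 genes below every line, 441 (76.6%) were again below, or 77.5% of the 569 tested there, beside 998 called in all, 5.42% of those tested. The shared genes are 54.8% of the 1359 and 44.2% of the 998. No gene was called in the opposite direction. All 33 genes that were on in REH and off elsewhere exceeded 3 counts in each treated REH library, and IGF2BP1 had 223, 213 and 184 CPM there. Some of them were not at 0 in the treated libraries of the other lines. NCKAP1 had 3.98 CPM and SLITRK5 0.56 CPM in treated library C of SUPB15. PCDH10 reached 0.934 CPM and ADGRL3 0.881 CPM among the other treated lines. PIM1 had 63.4, 77.6 and 65.3 CPM in treated REH against 6.48 to 11.7 CPM in the other treated lines.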

How the data were processed

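The authors deposited whole-number read counts per gene symbol, 1 table per line, which they had not normalized. The submitters' processing notes name hg19. Neither aligner, counter, annotation nor strand use is stated in the labels or headers. Tables were joined on symbol (50648 genes). Of these symbols, 24 had been turned into dates and are not named, and 2 repeated ones were left out (at most 0.000949% of a library). Letters A to C of the columns occur in no label, so those columns are replicates of a group. The series' design text speaks of independent experiments, and p-values measure the spread between these cultures.

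The 15 untreated libraries were fitted with edgeR 4.0.16 in R 4.3.3 (TMM, filterByExpr at a minimum count of 10, glmQLFit and glmQLFTest, 1 coefficient per line), with Benjamini-Hochberg adjustment over 19178 genes and a threshold of 0.05. Standard errors were taken as the log2 difference over the root of F. CPM are scaled by TMM over these 15 libraries, and those of treated or T-cell libraries over all 42. A fold against a line at 0 is a bound from 3 counts over the group, and with 1 to 3 counts it has an exact 95% interval, which covers counting error only. Replicates differed beyond sampling noise (lowest chi-square 25.4 per degree of freedom).

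The 15 genes per direction were ranked by their smallest difference from any line, with no overlap and at least 5 CPM, and clone-based, noncoding and pseudogene names, of which up to 5 per direction are named, were ranked apart. All members of 3 lists and up to 6 called members of each other list were named, besides a few defining genes. A few genes that this rule names are not reported here. Members and lists were chosen with earlier results of these data known. DESeq2 1.42.0 and other settings served as alternatives. On simulated counts for 18233 genes, 84% of genes changed 4-fold and 20% of those changed 2-fold from every line were found. The changed genes were drawn from well-counted genes, and the 4 other lines were simulated with equal means. These shares therefore do not describe genes of low count or lines that differ among themselves. Figures used matplotlib 3.10.9.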

Additional observations from a re-analysis of the deposited data

Results flagged for a closer look

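In data outside the comparisons, the treated REH libraries held counts for genes at or near 0 in untreated REH, where the limit is 3 counts over the group. In treated library A of REH, BCAT1 had 20.7 CPM (308 counts), VPREB1 3.02 (45), AMOTL1 2.69 (40) and PYCR1 1.61 (24). GPM6B and KCNQ5 each had 1.41 CPM (21 counts), DIAPH2 1.34 (20), SLC16A7 1.28 (19) and DEPDC1 1.01 (15). SNTB1 had 0.806 CPM (12), OSBPL1A 0.538 (8), SPRED1 0.47 (7) and TAF4B 0.336 (5). In treated libraries B and C only SNTB1 of these was over the limit, with 0.31 and 0.163 CPM (17 and 6 counts). Of the 29 genes with at most 3 counts in untreated REH, 25 exceeded 3 counts in treated library A, 1 in B and 2 in C. The other treated B-precursor lines held these genes at up to 2090 CPM, for BCAT1. The cause was not tested. In a fit without this library, chosen after seeing the data, 737 of the 1040 genes above every line and 441 of the 576 below were called again among the treated libraries, against 745 and 441 with it.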

How the results depend on the processing

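RLE scaling, no filter on low counts, DESeq2 and a fit of all 42 libraries kept every count of genes within 1.5 times of the value reported. Requiring a log2 difference of 1 left 1334 genes lower than the mean and 343 below every line. Without the first libraries of the 4 lines, 4182 genes were lower than in Nalm6 (2747 with them). In the treated libraries on their own, 4047 genes were lower than the mean, 998 below every line (441 shared), and 4480, 5252 and 5386 lower than in Nalm6, SUPB15 and RS411. RUNX1 turned to 0.08 there (adjusted p = 0.7, edgeR). The cause was not tested. Of 3079 alternative values, 3042 kept their side of the threshold without a reversal. A change of sign was counted as a reversal only where either value passed.

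Leaving out 1 library at a time gave 881 to 1233 genes above and 444 to 709 below every line, and 3725 to 5042 higher and 1734 to 2901 lower than the mean. The smallest counts came without REH B or C and the largest without 697 1. Libraries of REH and of Nalm6, SUPB15 or RS411 with the same letter correlated at 0.19 to 0.38, apart from REH C and RS411 C at 0.03. Each REH library correlated best with its own letter in these lines, except that REH C correlated best with RS411 B. The main fit did not pair libraries by letter, and whether the letters mark a shared replicate was not tested. With the letter as a replicate block, 1064 genes were above and 592 below every line. The columns of 697 carry numbers, so this block did not cover them. Genes under about 0.1 CPM rest on a few counts per library.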

Other observations

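Untreated T-cell lines, which enter no comparison here, shared some of the REH pattern, with the CPM scaled over all 42 libraries. EPOR had 4.59, 6.11 and 7.58 CPM in CEM and 3.27, 2.39 and 4.42 CPM in DND41, between REH and the other B-precursor lines. RAG1 reached 1170, 1700 and 1510 CPM in DND41. PIM1 had 362, 553 and 515 CPM in DND41. BCAT1 averaged 583 CPM in CEM and 631 CPM in DND41, so REH was the 1 line of 7 at the floor. PYCR1 had 14.9 CPM in CEM and 0 in DND41. IGF2BP1, TSPYL5 and CTSL had 0 counts in both T-cell lines as well.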
